A study of Mus musculus with 9 samples.

Results

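The mitochondrially encoded respiratory chain genes were followed in bone marrow cells of mice with and without Pot1a deletion in NG2-positive cells. The group was set by name as mt-Nd1, mt-Nd2, mt-Nd4, mt-Nd5, mt-Nd6, mt-Co1, mt-Co2, mt-Co3, mt-Cytb and mt-Atp6, so no measured value chose these 10 genes. Of the 10, 7 had counts and did so in each of the 9 libraries, whereas mt-Co2, mt-Co3 and mt-Atp6 had no row and were counted as 0. The series held 15265 genes in all. The 7 genes took 19944 of 2616983 counts, or 0.762%. The 26 rows with an mt- symbol together took 48695 counts, or 1.86%.

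The cells were unselected whole bone marrow of C57BL/6 mice aged 2 to 3 weeks, profiled by Drop-seq, which captures polyadenylated RNA of single cells on barcoded beads. The study's names for its Pot1a fl/fl and NG2-cre source lines also hold strains other than C57BL/6. NG2-cre/Pot1a fl/fl cells, in 4 libraries, were set against NG2-cre/Pot1a wt/wt cells, in 5 libraries, each library holding 100 barcodes. Both genotypes are taken here to carry the NG2-cre transgene, although the study's legend calls the controls wildtype. In this transgene the promoter of Cspg4 (NG2) drives Cre in mesenchymal niche cells and, per the study, in pericytes throughout the body. The blood cells themselves are thus not the cells in which Cre is expected to act. The study states fewer mice per genotype than there are libraries and gives no map from one to the other, so every p-value given here reflects variation among libraries, part of which may be technical.

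The mitochondrial genome encodes a few core subunits of the respiratory chain and of ATP synthase, and all other subunits are made from nuclear genes and imported. The Nd genes encode core membrane subunits of complex I, mt-Cytb encodes cytochrome b of complex III, the Co genes encode the catalytic core of complex IV and mt-Atp6 encodes a membrane subunit of ATP synthase. Both strands of the genome are read as long transcripts from which the mRNAs and the rRNAs mt-Rnr1 and mt-Rnr2 are cut, so that differences between the genes of a strand arise largely after transcription. In marrow, neutrophils are known for a glycolytic metabolism, and maturing erythroid cells clear their mitochondria before they become red cells.

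Total counts per library lay between 119459 and 465277, with 8966 to 12013 genes detected. Globin counts took 0.870% to 8.09% and all mt- rows 1.18% to 2.56% of a library. Pot1a itself was too sparse to check the genotype labels: it had 10, 3, 1 and 15 counts in the Pot1a fl/fl libraries and 3, 9, 10, 6 and 2 counts in the Pot1a wt/wt libraries, and Cspg4 had at most 5 counts in any library. Of the 900 barcodes, 1 had more than 25% mt counts, a barcode of Pot1a wt/wt library 4 with 58.9% of its 1261 counts on mt- rows and 18.6% on the 7 genes. It is called the high-mt barcode below, and results that rest on it are given with and without it. Pot1a wt/wt libraries 2 and 3 shared 19 cell barcodes, the only 1 of 36 pairs of libraries to share any. The 2 profiles of each such barcode had 88.9% to 92.7% of their counts in common and correlated at 0.961 to 0.999 across genes, so these 2 libraries appear to hold some of the same cells and are not fully independent. The numbers of libraries and the p-values below treat them as separate. With both taken as 1 library and the 19 barcodes counted once, 0 genes of the group were called between genotypes in whole marrow or in any lineage, and where a gene is said below to be higher or lower in all of 8 or 9 libraries the same held in all of the 7 or 8 then left. Calls that this changed are given beside them.

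The 10 genes all lie on the mitochondrial chromosome in GRCm38 (mm10), as annotated by GENCODE M21, and each is a single exon. On the plus strand, mt-Nd1 lies at chrM:2751-3707, mt-Nd2 at chrM:3914-4951, mt-Co1 at chrM:5328-6872, mt-Co2 at chrM:7013-7696, mt-Atp6 at chrM:7927-8607, mt-Co3 at chrM:8607-9390, mt-Nd4 at chrM:10167-11544, mt-Nd5 at chrM:11742-13565 and mt-Cytb at chrM:14145-15288. On the minus strand, mt-Nd6 lies at chrM:13552-14070, so it overlaps the end of mt-Nd5. Whether the counting used strand is not given in the sources used here, so reads of mt-Nd6 and reads antisense to it cannot be told apart and its values are uncertain.

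The silent genes and the counted genes differed in how much sequence they share with nuclear copies of mitochondrial DNA. The last 60 bases of the annotated gene are shown for 6 of the 10 genes, since Drop-seq reads start near the 3′ end of a transcript. Capitals mark bases that differ from the most similar annotated transcript outside the mitochondrial genome, or that lie beyond it, and lower case marks shared bases.
mt-Co2: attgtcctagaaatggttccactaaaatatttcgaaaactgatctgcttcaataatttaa
mt-Co3: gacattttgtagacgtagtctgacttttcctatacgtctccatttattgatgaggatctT
mt-Atp6: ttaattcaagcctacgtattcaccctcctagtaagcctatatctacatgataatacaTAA
mt-Co1: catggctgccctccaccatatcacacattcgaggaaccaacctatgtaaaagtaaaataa
mt-Cytb: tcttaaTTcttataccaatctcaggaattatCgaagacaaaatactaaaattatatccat
mt-Nd6: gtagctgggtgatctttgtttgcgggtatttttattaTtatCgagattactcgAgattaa

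The 3 genes at 0 were matched nearly base for base by nuclear sequence. These runs were chrM:7637-7696 for mt-Co2, chrM:9331-9390 for mt-Co3, chrM:8548-8607 for mt-Atp6, chrM:6813-6872 for mt-Co1, chrM:15229-15288 for mt-Cytb and, on the minus strand, chrM:13552-13611 for mt-Nd6. Within the final 300 bases, the share of 50-base windows that occurred unchanged in a transcript outside the mitochondrial genome was 100% for mt-Co2, 99.6% for mt-Co3 and 98.8% for mt-Atp6. The pseudogenes Gm28661, Gm28437 and Gm10925 on chromosome 1 aligned to these genes without a mismatch over 681, 783 and 678 bases, in that order. By the same measure the share was 0% for mt-Nd1, mt-Nd4, mt-Nd6 and mt-Cytb, 1.99% for mt-Nd5 and 31.9% for mt-Nd2, all of which had counts.

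The match was not complete, however. mt-Co1, the catalytic subunit of complex IV, had 3232 counts although every window of its last 300 bases also occurred in a transcript outside the mitochondrial genome. The pseudogene Gm29216 matched the last 60 bases of mt-Co1 without a mismatch. mt-Nd3, a complex I gene outside the list of 10, had 597 counts with 98.8% of its windows shared, whereas mt-Nd4l, also outside the list, had a shared-window figure of 98.8% over its whole length and 0 counts. The nearest copies with a row of their own had few counts, with 1 for Gm10222, 12 for Gm4076 and 48 for Gm20594. Whether shared sequence set which genes were counted was not tested, and a count of 0 for mt-Co2, mt-Co3 and mt-Atp6 is no measure of their expression.

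**Figure D1:**
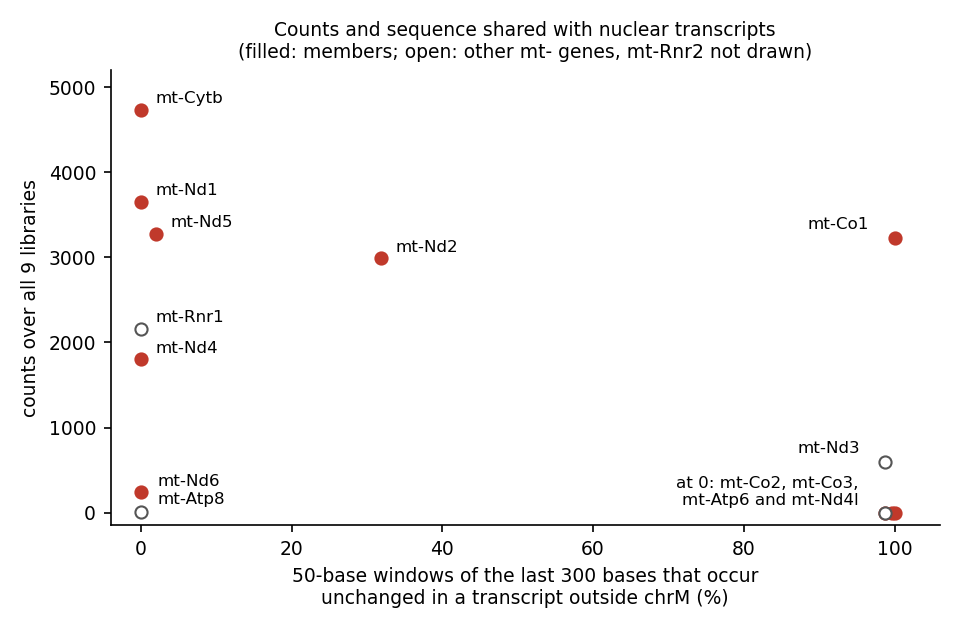
Counts over all 9 libraries (y axis) against the percentage of 50-base windows of a gene's last 300 bases found unchanged in a transcript outside the mitochondrial genome (x axis), filled points for the respiratory chain genes of the list and open points for other mt- genes. mt-Co2, mt-Co3, mt-Atp6 and mt-Nd4l lie at 0 counts near 100%, while mt-Co1 lies at 100% with 3232 counts.

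Among the 7 counted genes, mt-Cytb had most counts. It held 4737 counts, or 23.8% of the counts of the group, followed by mt-Nd1 with 3656 (18.3%), mt-Nd5 with 3279 (16.4%), mt-Co1 with 3232 (16.2%), mt-Nd2 with 2990 (14.99%), mt-Nd4 with 1806 (9.06%) and mt-Nd6 with 244 (1.22%). The ribosomal RNA mt-Rnr2 alone had 25044 counts, 51.4% of all mt- counts. Per kilobase of gene, mt-Cytb stood at 1612 ± 306 and mt-Nd1 at 1441 ± 328 CPM per kb (SD, n = 9 libraries), CPM being the share of all counts of a library scaled to a fixed total, and these neighbours did not differ beyond their spread. mt-Nd2 followed at 1049 ± 291, mt-Co1 at 826 ± 147, mt-Nd5 at 632 ± 226, mt-Nd4 at 498 ± 83.6 and mt-Nd6 at 174 ± 95.9 CPM per kb (SD, n = 9). Only the step between mt-Nd4 and mt-Nd6 exceeded the sum of the SDs on both sides. Since reads start at the 3′ end, a level per kb favours short genes and is no molar ratio.

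The first comparison asked whether deletion of Pot1a in NG2-positive cells went with a change of these genes in the marrow as a whole. None of the 7 differed between the genotypes. The group took 0.772%, 0.696%, 0.820% and 0.863% of counts in Pot1a fl/fl libraries 1 to 4, against 0.573%, 0.660%, 0.659%, 1.03% and 0.692% in Pot1a wt/wt libraries 1 to 5. The ranges overlapped, with Pot1a wt/wt library 4 the highest of all 9, and its share was 0.966% without the high-mt barcode. The means were 0.788% ± 0.0714 in Pot1a fl/fl and 0.723% ± 0.178 in Pot1a wt/wt (SD, n = 4 and 5).

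mt-Cytb, the complex III subunit, had 1642, 2017, 2302 and 1953 CPM in Pot1a fl/fl libraries, against 1427, 1510, 1492, 2368 and 1884 CPM in Pot1a wt/wt libraries. mt-Nd1, a complex I subunit at the membrane arm, had 1352, 1309, 1490 and 1570 CPM in Pot1a fl/fl libraries, against 974, 1132, 1227, 2069 and 1291 CPM in Pot1a wt/wt libraries. In both genes the 4 Pot1a fl/fl libraries each stood above at least 3 of the 5 Pot1a wt/wt libraries, but Pot1a wt/wt library 4 exceeded them all. mt-Co1 had 1223, 1167, 1733 and 1172 CPM in Pot1a fl/fl libraries, against 1248, 1037, 1038, 1512 and 1360 CPM in Pot1a wt/wt libraries.

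mt-Nd5, the largest mitochondrially encoded complex I subunit, varied most among the abundant genes. It had 1444, 808, 862 and 1932 CPM in Pot1a fl/fl libraries, against 731, 1171, 1089, 1542 and 795 CPM in Pot1a wt/wt libraries, with 2 low and 2 high libraries in Pot1a fl/fl. Its counts ran from 0.498 to 1.65 times those of mt-Co1 in Pot1a fl/fl libraries and from 0.585 to 1.13 times in Pot1a wt/wt libraries, so the mix of the group differed between libraries of a genotype by more than between genotypes. mt-Nd2 averaged 1046 ± 206 in Pot1a fl/fl and 1123 ± 384 CPM in Pot1a wt/wt, mt-Nd4 averaged 744 ± 77.2 in Pot1a fl/fl and 640 ± 127 CPM in Pot1a wt/wt, and mt-Nd6 averaged 91.4 ± 32.5 in Pot1a fl/fl and 89.2 ± 64.5 CPM in Pot1a wt/wt (SD, n = 4 and 5).

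**Figure D2:**
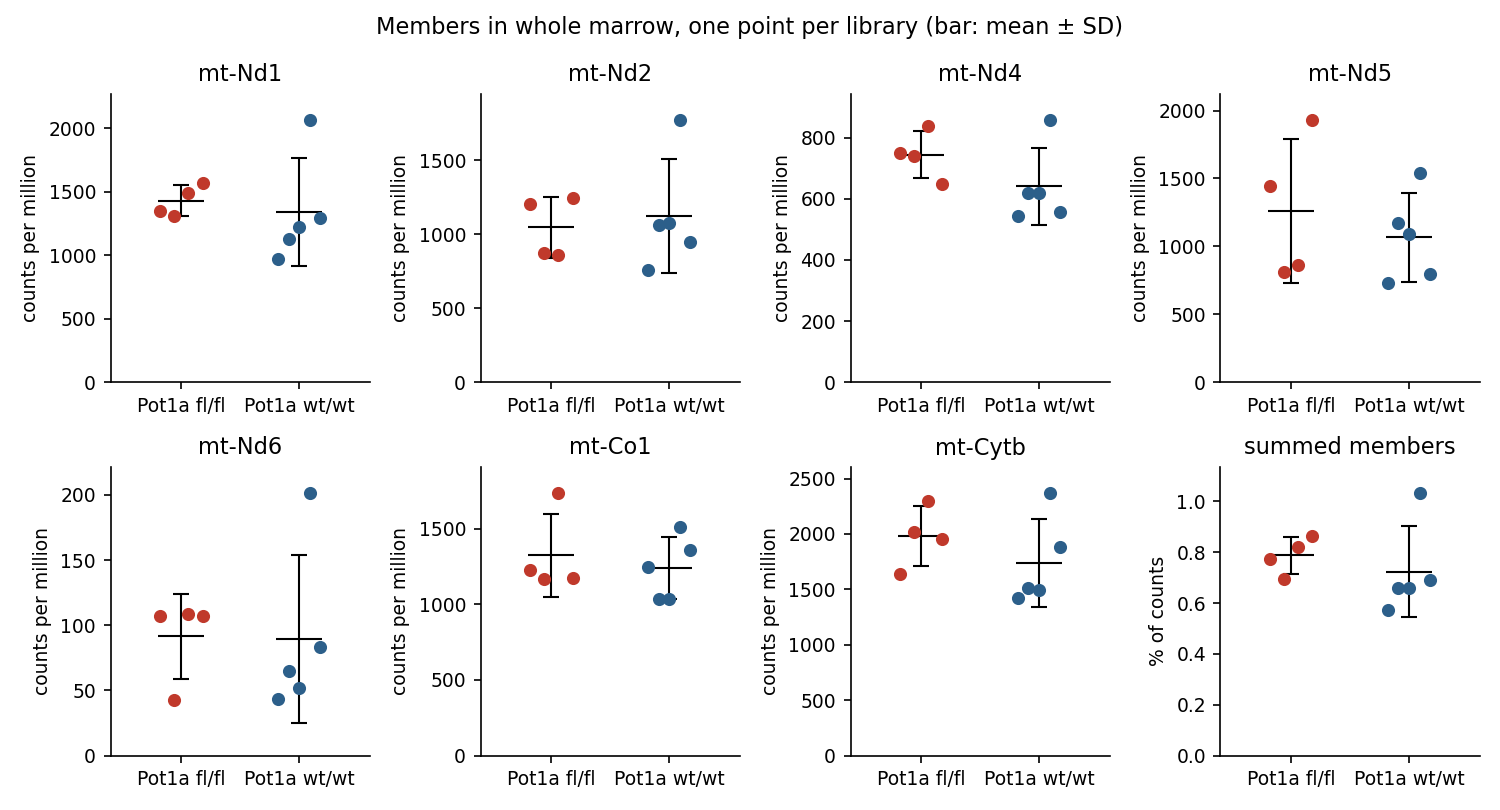
CPM of each counted gene and, in the last panel, the percentage of all counts taken by the 7 genes (y axes) in whole marrow, with Pot1a fl/fl left of Pot1a wt/wt, 1 point per library and bars for the mean ± SD. The genotypes overlap in each panel, and the highest wt/wt point, at 1.03% in the last panel, is library 4.

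By edgeR's quasi-likelihood test with Benjamini-Hochberg adjustment over all genes, 0 of the 7 genes passed an adjusted p of 0.05 between Pot1a fl/fl and Pot1a wt/wt, where 3 of 4519 genes (0.0664%) did, and 0 of the 7 had an unadjusted p under 0.05. DESeq2, like every alternative run, also called 0. The log2 fold changes lay between -0.05 for mt-Nd2 and 0.29 for mt-Nd5, with adjusted p from 0.772 to 0.984. The 95% interval ran from -0.19 to 0.70 for mt-Cytb, from -0.23 to 0.80 for mt-Nd5 and from -0.51 to 0.42 for mt-Nd2, so changes of these sizes could not be told from none. The median log2 fold change of the 7 was 0.16, beside 0.08 over 75 nuclear-encoded subunits of the respiratory chain and ATP synthase, of which 0 were called, and -0.00 over all genes. Because bulk sums are compared, a higher share of cells rich in these RNAs and more RNA per cell cannot be told apart.

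Cells were next grouped without use of any mt- gene, so that the groups do not carry the measured genes. Of the 10 clusters, 3 were granulocyte-like: a primary granule cluster of 69 cells led by Mpo, Elane, Prtn3 and Ctsg, a secondary granule cluster of 163 cells with Camp and Ngp, and a late cluster of 41 cells with Retnlg, Mmp8 and Cxcr2. Of the others, 2 were B-lineage-like, an early cluster of 104 cells with Vpreb1, Igll1 and Dntt and a late cluster of 124 cells with Fcrla, Cd72 and Igkc. An erythroid-like cluster had 144 cells, a monocyte/macrophage-like cluster 67 and a mesenchymal/osteolineage-like cluster 33. A cluster of 109 cells with Mt2 and Car1 and one of 46 cells with Ms4a4b and Gata2 had too few of the chosen markers to be named. The names are rebuilt here and may differ from those of the study. The borders of the clusters were not sharp: when the same clustering was run with another numerical kernel, 53 of 900 cells changed cluster, among them 18 secondary granule cells that joined the primary granule cluster.

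The pooled share of counts taken by the 7 genes differed widely between the clusters. It was 0.962% in late and 0.933% in early B-lineage-like cells, 0.956% in the Mt2 and Car1 cluster, 0.948% in mesenchymal/osteolineage-like cells and 0.929% in primary granule cells. It was 0.904% in the Ms4a4b and Gata2 cluster, 0.674% in monocyte/macrophage-like cells, 0.601% in erythroid-like cells, 0.325% in secondary granule cells (0.268% without the high-mt barcode) and 0.136% in late granulocyte-like cells. The 6 clusters above 0.9% had shares in single libraries that overlapped throughout. The median count per cell was 1173 in the mesenchymal cluster, 1462 in the late granulocyte cluster and 1919 to 3600 in the others, and the part of depth was not tested. In the mesenchymal cluster 1 cell of Pot1a fl/fl library 1 held 222 of the 548 counts of the group, and the share was 0.683% without that library.

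**Figure D3:**
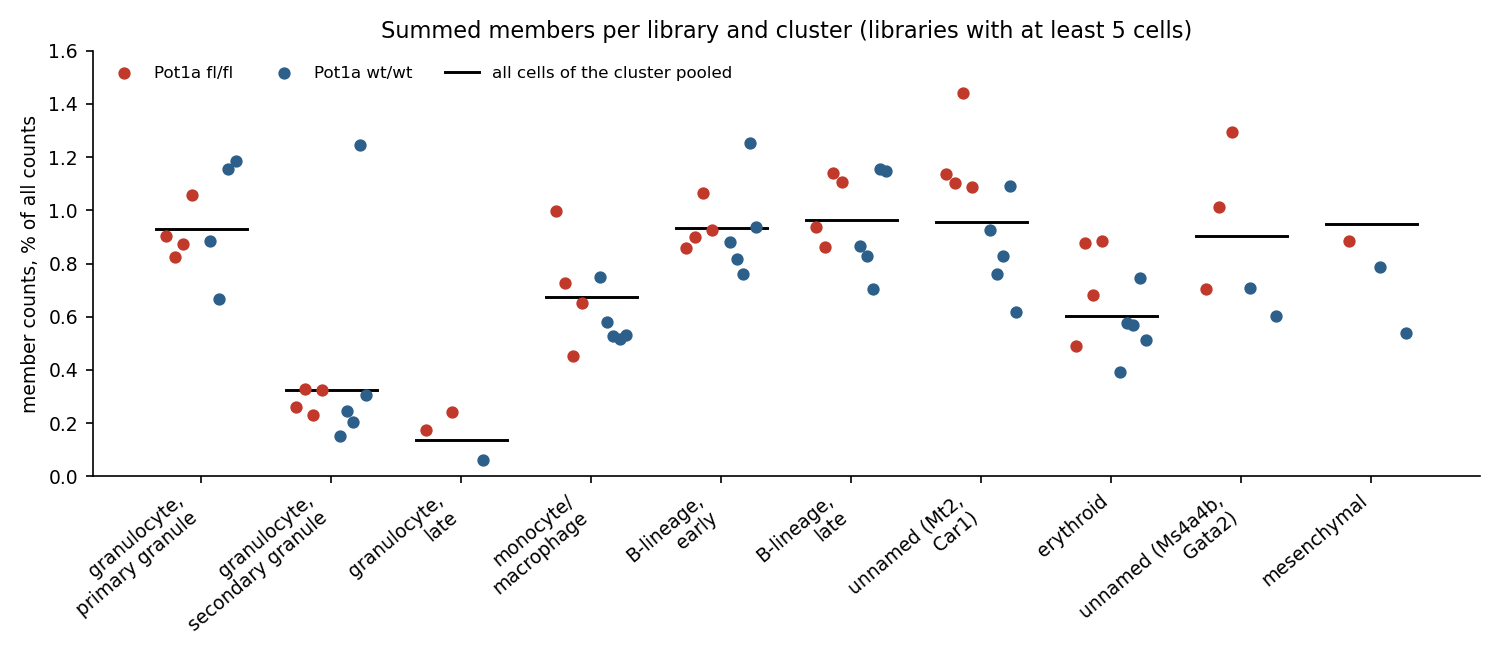
Percentage of all counts taken by the 7 genes (y axis) per library and cluster (x axis), for libraries with at least 5 cells of the cluster, with a line at the value of all cells of the cluster pooled. Primary granule cells lie between 0.667% and 1.19%, and secondary granule cells between 0.152% and 0.330% apart from Pot1a wt/wt library 4 at 1.25%.

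Between lineages, B-lineage-like cells gave these genes a larger share than granulocyte-like cells in 9 of 9 libraries. The lineages differ in their mix of stages, however. Primary granule cells, at a pooled 0.929%, made up 26.8% of granulocyte-like cells in Pot1a fl/fl and 23.4% in Pot1a wt/wt. The erythroid-like group leaves out the unnamed Mt2 and Car1 cluster, at a pooled 0.956%. The part of stage mix in the lineage differences was not tested. The share in B-lineage-like cells was 0.901%, 0.887%, 1.10% and 0.990% in Pot1a fl/fl libraries and 0.876%, 0.823%, 0.734%, 1.21% and 1.05% in Pot1a wt/wt libraries, with a mean of 0.952% ± 0.147 (SD, n = 9). In granulocyte-like cells it was 0.627%, 0.468%, 0.399% and 0.614% in Pot1a fl/fl libraries and 0.238%, 0.425%, 0.392%, 1.11% and 0.700% in Pot1a wt/wt libraries, with a mean of 0.552% ± 0.253 (SD, n = 9). The high value of Pot1a wt/wt library 4 was 0.770%, and the mean 0.515% ± 0.172 (SD, n = 9), without the high-mt barcode. Erythroid-like cells averaged 0.607% ± 0.157 (SD, n = 8 libraries with at least 10 cells), below B-lineage-like cells in 8 of 8 libraries and above granulocyte-like cells in 5 of 8.

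The complex I genes mt-Nd1 and mt-Nd2 and the complex III gene mt-Cytb were higher in B-lineage-like than in granulocyte-like cells. mt-Nd1 had 1475, 1896, 2320 and 1931 CPM in B-lineage-like cells of Pot1a fl/fl libraries and 1319, 1364, 1384, 2621 and 1629 CPM in those of Pot1a wt/wt libraries. In granulocyte-like cells it had 1036, 684, 653 and 1057 CPM in Pot1a fl/fl libraries and 441, 561, 758, 1426 and 1220 CPM in Pot1a wt/wt libraries. Within each of the 9 libraries mt-Nd1 was higher in B-lineage-like cells. The 2 ranges overlapped only through Pot1a wt/wt library 4, whose 1426 CPM in granulocyte-like cells was 1040 CPM without the high-mt barcode, below the lowest B-lineage value. mt-Cytb was likewise higher in 9 of 9 libraries, with means of 2624 CPM in B-lineage-like and 1310 CPM in granulocyte-like cells, and so was mt-Nd2, with means of 1351 CPM in B-lineage-like and 727 CPM in granulocyte-like cells.

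In a fit with the library as a block and TMM scaling, 3 of 6 genes tested were called higher in B-lineage-like than in granulocyte-like cells, where 20.9% of 1424 genes were called higher and 23.1% lower. The log2 fold change was 0.47 (SE 0.12, edgeR adjusted p = 0.00158) for mt-Nd1, 0.42 (SE 0.12, adjusted p = 0.00411) for mt-Cytb and 0.43 (SE 0.15, adjusted p = 0.0179) for mt-Nd2. The call of mt-Nd2 was lost without Pot1a fl/fl library 4 (0.39, adjusted p = 0.0521), Pot1a wt/wt library 1 (0.34, adjusted p = 0.0672) or Pot1a wt/wt library 3 (0.33, adjusted p = 0.0823), and with DESeq2 (0.40, adjusted p = 0.0613). mt-Nd5 had a log2 fold change of 0.26 (adjusted p = 0.223), which passed the test without Pot1a wt/wt library 4 (0.50, adjusted p = 0.00637) and without the high-mt barcode (0.36, adjusted p = 0.0464). The signs of mt-Co1 and mt-Nd4 depended on the scaling, with log2 fold changes from -0.13 to 0.50 for mt-Co1 and from -0.30 to 0.34 for mt-Nd4, and on library totals without TMM mt-Co1 (0.49, adjusted p = 0.00918) and mt-Nd5 (0.84, adjusted p = 0.000125) were called higher. Other genes shifted with the scaling too: the median of the nuclear-encoded subunits ran from -0.18 to 0.47 over 6 scalings. The background shares above hold for TMM, and none is given here for library totals.

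The nuclear-encoded subunits did not follow. Of 64 tested, 3 were higher and 7 lower in B-lineage-like than in granulocyte-like cells, with a median log2 fold change of -0.12, beside 0.34 for the 6 mitochondrial genes and 0.05 over all genes. Relative to the median of all genes, the mitochondrial genes stood at 0.30 to 0.33 and the nuclear subunits at -0.17 to -0.15 over 6 scalings. Among the nuclear subunits, Ndufa12 of complex I rose by 0.90 and Sdhb of complex II by 0.68, while Ndufv3 of complex I (-1.27), Uqcrb of complex III (-1.03) and Cox7c of complex IV (-0.82) fell on the log2 scale. mt-Nd3, the further complex I gene, rose by 0.80 (adjusted p = 0.00629), and mt-Rnr2 had a log2 fold change of -0.05.

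B-lineage-like cells also exceeded erythroid-like cells in 4 of 6 genes, where 25.7% of genes were called higher and 22.7% lower. mt-Cytb rose by 0.74 (SE 0.13, edgeR adjusted p = 1.18e-05), mt-Nd1 by 0.66 (SE 0.14, adjusted p = 8.89e-05) and mt-Nd2 by 0.59 (adjusted p = 0.00283) on the log2 scale, each in 8 of 8 libraries. mt-Nd5 rose by 0.48 (adjusted p = 0.0325), a call lost without Pot1a fl/fl library 1 or 3 or Pot1a wt/wt library 1, 2 or 3, with log2 fold changes of 0.44 to 0.49 and adjusted p of 0.0502 to 0.0822, with DESeq2 (0.53, adjusted p = 0.0558) and with Pot1a wt/wt libraries 2 and 3 as 1 library (0.48, adjusted p = 0.0514). When the cells were clustered without integration of the libraries, the calls of mt-Nd2 (0.19, adjusted p = 0.350) and mt-Nd5 (0.27, adjusted p = 0.166) were both lost. mt-Co1 went the other way at -0.31 (SE 0.16, adjusted p = 0.106) and passed the test only without Pot1a fl/fl library 1 (-0.40, adjusted p = 0.0495). Its mean was 1515 CPM in B-lineage-like and 1512 CPM in erythroid-like cells, with 4 of 8 libraries higher. Of 64 nuclear subunits, 2 were higher and 12 lower, with a median of -0.21 beside 0.54 for the mitochondrial genes and 0.05 over all genes, and Cox5a of complex IV rose by 1.14 while Cox7c fell by 1.59 on the log2 scale. The mitophagy receptor Bnip3l, which acts in the removal of mitochondria from maturing red cells, fell by 1.95, the nuclear RNA Malat1 fell by 0.68 and the stress gene Jun rose by 2.22 on the log2 scale in the same comparison. Their part in the result was not tested.

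Erythroid-like over granulocyte-like cells gave 1 call of 6, where 28.7% of genes were called lower and 24.6% higher. mt-Cytb had a log2 fold change of -0.32 (SE 0.14, edgeR adjusted p = 0.0483), which turned to 0.21 with totals of non-globin genes and was lost without Pot1a fl/fl library 1 or 4 or Pot1a wt/wt library 1, 2, 4 or 5 (-0.34 to -0.27, adjusted p 0.0610 to 0.147). mt-Nd4 passed the test without Pot1a fl/fl library 3 (-0.48, adjusted p = 0.0492). mt-Co1 was the only gene of the 6 with the same sign over all 6 scalings, with log2 fold changes of 0.14 to 0.76. It was not called with TMM, at 0.23, but was called higher in erythroid-like cells on library totals (0.52, adjusted p = 0.0128), totals of non-mt genes (0.52, adjusted p = 0.0127) and totals of non-globin genes (0.76, adjusted p = 0.000343). Other genes shifted with the scaling too: the median of the nuclear-encoded subunits ran from -0.01 to 0.61 over the 6 scalings.

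The largest differences lay within the granulocyte-like cells, along the sequence of granule genes. The pooled share of the 7 genes was 0.929% in primary granule cells, 0.325% in secondary granule cells and 0.136% in late cells. In the primary granule cluster it was 0.905%, 0.824%, 0.874% and 1.06% in Pot1a fl/fl libraries and 0.786% (from 3 cells), 0.886%, 0.667%, 1.16% and 1.19% in Pot1a wt/wt libraries. In the secondary granule cluster it was 0.260%, 0.330%, 0.232% and 0.323% in Pot1a fl/fl libraries and 0.152%, 0.244%, 0.205%, 1.25% and 0.305% in Pot1a wt/wt libraries. The ranges were apart in all libraries but Pot1a wt/wt library 4, in which the high-mt barcode sat in the secondary granule cluster and the share was 0.336% without it.

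mt-Nd1, mt-Nd2 and mt-Nd5 of complex I and mt-Cytb of complex III fell between these clusters, and mt-Nd4 and mt-Nd6 did not pass the test. mt-Nd1 had 344, 535, 363 and 553 CPM in secondary granule cells of Pot1a fl/fl libraries and 204, 345, 411, 1421 and 509 CPM in those of Pot1a wt/wt libraries, the value of 1421 CPM being 374 CPM without the high-mt barcode. In primary granule cells mt-Nd1 had 1569, 1104, 1485 and 1873 CPM in Pot1a fl/fl libraries and 1171, 1268, 1635 and 2125 CPM in Pot1a wt/wt libraries 2 to 5. mt-Cytb had 550, 885, 508 and 880 CPM in secondary granule cells of Pot1a fl/fl libraries and 464, 567, 308, 2052 and 763 CPM in those of Pot1a wt/wt libraries, the value of 2052 CPM being 872 CPM without the high-mt barcode. Against these, primary granule cells had 1832, 2331, 2272 and 2497 CPM in Pot1a fl/fl libraries and 2290, 1827, 2650 and 2937 CPM in Pot1a wt/wt libraries 2 to 5. Both genes were lower in secondary granule cells in 8 of 8 libraries with enough cells of both clusters.

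This comparison was chosen after the clusters had been seen. Of 7 genes tested, 4 were called lower in secondary than in primary granule cells, where 18.2% of 1612 genes were lower and 23.9% higher. The log2 fold change was -0.81 (SE 0.20, edgeR adjusted p = 0.000475) for mt-Nd1, -0.79 (SE 0.19, adjusted p = 0.000303) for mt-Cytb, -0.88 (SE 0.27, adjusted p = 0.00464) for mt-Nd2 and -0.79 (adjusted p = 0.0151) for mt-Nd5. Without the high-mt barcode the same 4 genes stood at -1.06, -0.99, -1.62 and -1.39, in that order, and mt-Nd4 joined them at -0.72 (adjusted p = 0.0149). Without Pot1a wt/wt library 4, mt-Nd2 stood at -1.66, mt-Nd5 at -1.49 and mt-Nd4 at -0.78 (adjusted p = 0.0136). The call of mt-Nd5 was lost without Pot1a fl/fl library 1 (-0.62, adjusted p = 0.0851), and without Pot1a fl/fl library 3 mt-Nd4 (-0.63, adjusted p = 0.0457) and mt-Nd6 (-1.35, adjusted p = 0.0384) were called. With the other kernel in the clustering mt-Nd1 stood at -1.05 and mt-Cytb at -1.07, and mt-Nd6 was called too (-1.29, adjusted p = 0.0407). mt-Co1 had a log2 fold change of -0.19 (SE 0.20, adjusted p = 0.468), although its mean was 861 CPM in secondary and 1618 CPM in primary granule cells and lower in 7 of 8 libraries. That gap between the 2 scales is due to the TMM factors, and on library totals the value of mt-Co1 reached -1.01. Other genes shifted with the scaling too: the median of the nuclear-encoded subunits ran from -0.98 to -0.08 over 6 scalings.

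The mitochondrial rRNAs were called in the other direction with TMM scaling but not on library totals. mt-Rnr1 rose by 1.38 (SE 0.26, edgeR adjusted p = 7.33e-06) and mt-Rnr2 by 0.89 (SE 0.23, adjusted p = 0.000948) on the log2 scale in secondary over primary granule cells, and without the high-mt barcode mt-Rnr1 rose by 1.10 and mt-Rnr2 by 0.53. On library totals the log2 fold change was 0.59 (adjusted p = 0.0589) for mt-Rnr1 and 0.10 (adjusted p = 0.746) for mt-Rnr2. The pooled share of mt-Rnr2 was 0.626% in secondary and 0.614% in primary granule cells, but 0.517% in secondary granule cells without the high-mt barcode, below that of primary granule cells. The counts of the 7 genes as a percentage of those genes plus rRNA, a figure that no scaling affects, were lower in secondary granule cells in 8 of 8 libraries, with means of 32.4% in secondary (32.9% without the high-mt barcode) and 56.9% in primary granule cells. The 7 genes had a median log2 fold change of -0.79, or -0.94 to -0.92 relative to all genes over 6 scalings, while 60 nuclear subunits had a median of -0.16, or -0.30 to -0.27 relative to all genes, with 2 higher and 6 lower. The ATP synthase subunit Atp5g1 fell by 2.30 and the complex III subunit Uqcr11 by 1.12 on the log2 scale, and Ndufv3 rose by 0.72. Malat1 rose by 0.95, the immediate early gene Ier2 by 1.01 and Bnip3l by 1.43 on the log2 scale alongside. The median count per cell was 2276 in secondary and 3600 in primary granule cells. The part of RNA quality and depth in the result was not tested.

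Late granulocyte-like cells were lower still. Only 3 libraries had at least 5 such cells, and over these the cluster had 33395 counts, against 304271 in the 8 libraries with enough primary granule cells. mt-Nd1 had 1, 2 and 2 counts in late cells of Pot1a fl/fl libraries 1 and 4 and Pot1a wt/wt library 1, and mt-Nd2 had 0, 1 and 1 counts. Thus mt-Nd1 had 5 counts in late and 465 in primary granule cells, a ratio of rates of 0.0980 (95% exact interval 0.0317 to 0.230). The ratio was 0.0451 (0.00544 to 0.164) for mt-Nd2, 0.0976 (0.0357 to 0.214) for mt-Nd5, 0.206 (0.114 to 0.341) for mt-Cytb and 0.266 (0.140 to 0.459) for mt-Co1. These intervals cover counting error only, and the 2 clusters are summed over different sets of libraries. mt-Nd6 had 0 counts in late and 41 in primary granule cells, at least 1.5-fold lower against a floor of 3 counts over the late group. mt-Rnr2 had 302 counts in late and 1925 in primary granule cells, a ratio of 1.43 (1.26 to 1.61).

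In the fit, 5 of 7 genes were called lower in late than in primary granule cells, where 22.5% of genes were lower and 13.5% higher. The log2 fold change was -3.72 (SE 0.87, edgeR adjusted p = 0.000377) for mt-Nd2, -2.77 (SE 0.71, adjusted p = 0.0011) for mt-Nd5, -2.65 (adjusted p = 4.26e-05) for mt-Nd1, -1.62 (SE 0.41, adjusted p = 0.001) for mt-Cytb and -1.41 (SE 0.46, adjusted p = 0.0119) for mt-Co1. With 2 counts in the late cells of the fit, mt-Nd2 lay below the floor of 3 counts, so the size of its change is uncertain. All 5 kept their calls when any single library was left out, but the sizes rested on few libraries and the calls on the scaling. Only 2 libraries, Pot1a fl/fl 1 and 4, had enough cells of both clusters to compare them within a library. Leaving out a library without late cells in the fit therefore tests these calls little. With DESeq2's size factors in the edgeR fit the calls of mt-Co1 (-0.53, adjusted p = 0.419), mt-Cytb (-0.71, adjusted p = 0.196) and mt-Nd5 (-1.85, adjusted p = 0.0557) were lost, and DESeq2 itself did not call mt-Co1 (adjusted p = 0.411) or mt-Cytb (adjusted p = 0.209). mt-Co1 had 10 of its 13 late counts in Pot1a fl/fl library 1 and stood at -3.29 without it, and mt-Cytb stood at -2.54 without Pot1a fl/fl library 4. Without Pot1a fl/fl library 3, mt-Co1 stood at -2.02, mt-Cytb at -2.25 and mt-Nd1 at -3.25. Without Pot1a fl/fl library 4, mt-Nd2 stood at -4.49 and mt-Nd5 at -3.43, and without Pot1a wt/wt library 1 mt-Nd2 stood at -4.60 and mt-Nd1 at -3.26. mt-Nd4 had a log2 fold change of -1.02 (adjusted p = 0.157), with 8 of its 9 late counts in Pot1a fl/fl library 4, and was called without that library (-4.04, adjusted p = 0.00123) or without Pot1a fl/fl library 3 (-1.71, adjusted p = 0.0085), and with Pot1a wt/wt libraries 2 and 3 as 1 library (-1.28, adjusted p = 0.0308).

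The median log2 fold change of the 7 genes was -2.65, or -1.62 with mt-Nd6 at its bound, beside -0.90 over all genes. Relative to all genes, the 7 stood at -1.80 to -1.45 over 6 scalings with mt-Nd6 at its fitted value. With TMM and mt-Nd6 at its bound, they stood at -0.72. The 60 nuclear subunits stood at -0.59 to -0.42 over the 6 scalings. Of the nuclear subunits, 0 were higher and 19 lower in late cells. The complex IV subunits Cox6b1 (-2.73), Cox8a (-2.23) and Cox7b (-2.19) fell on the log2 scale. In that order they had 2, 4 and 7 counts in the late cells of the fit, against 213, 257 and 455 in primary granule cells. With late counts this near the floor of 3 counts, the sizes of these changes are uncertain. mt-Rnr2 rose by 1.15 (edgeR adjusted p = 0.00461), a call that held in 13 of 23 alternatives and was lost on library totals (0.57, adjusted p = 0.153), totals of non-mt genes (0.57, adjusted p = 0.163) and totals of non-globin genes (0.56, adjusted p = 0.164). The nuclear RNAs Malat1 and Neat1 rose by 1.87 and 2.76 on the log2 scale. Of the 41 late cells, 13 had no count of any of the 7 genes at a median depth of 1462 counts, against 0 of 69 primary granule cells at 3600 counts. The parts of depth and RNA quality were not tested.

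**Figure D4:**
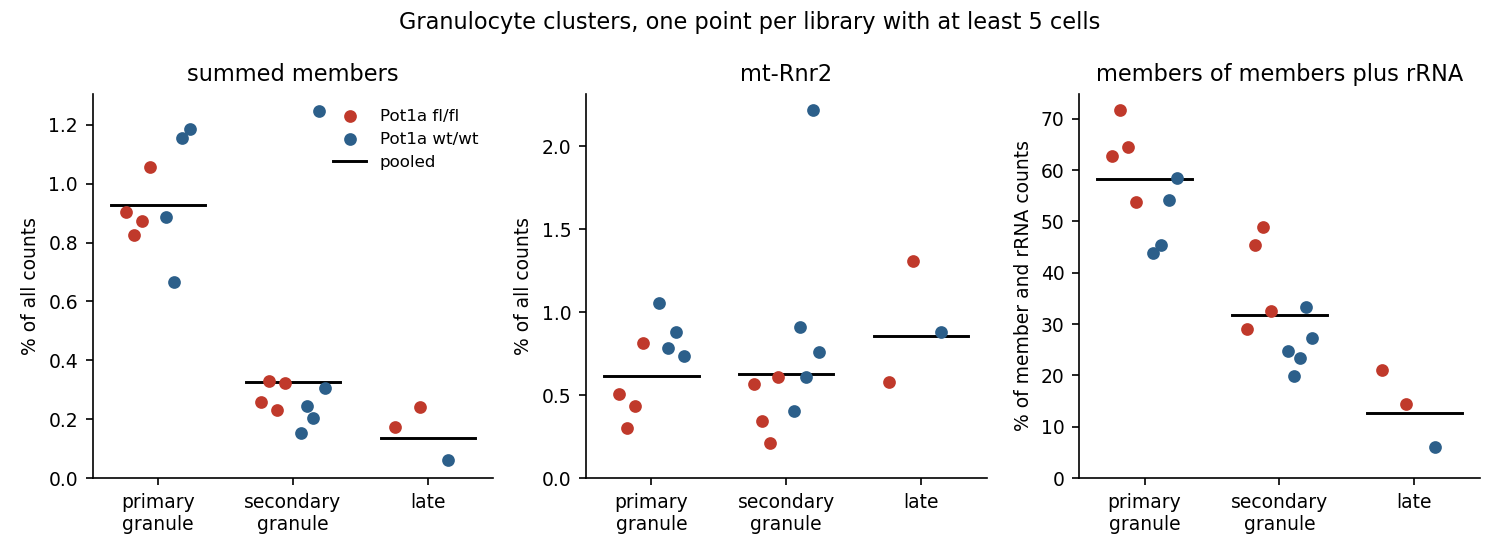
Percentage of all counts for the 7 genes and for mt-Rnr2, and the 7 genes as a percentage of themselves plus rRNA (y axes), in the 3 granulocyte-like clusters (x axes), with 1 point per library of at least 5 cells and a line for all cells pooled. The pooled share of the 7 genes was 0.929%, 0.325% and 0.136% along the stages, while that of mt-Rnr2 was 0.614%, 0.626% (0.517% without the high-mt barcode) and 0.859%.

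In the B lineage mt-Co1 alone of the group was called between stages. mt-Co1 had 1703, 1049, 1898 and 1791 CPM in late B-lineage-like cells of Pot1a fl/fl libraries and 2272, 1591, 1360, 2259 and 2014 CPM in those of Pot1a wt/wt libraries. In early B-lineage-like cells it had 1000, 924, 1748 and 730 CPM in Pot1a fl/fl libraries and 1613, 992, 827, 1242 and 1720 CPM in Pot1a wt/wt libraries. It was higher in late cells in 9 of 9 libraries, although the ranges overlapped. Its log2 fold change was 0.75 (SE 0.19, edgeR adjusted p = 0.00188), and it kept the call in 9 of 9 fits that left out 1 library, at 0.59 to 0.78, but lost it with no filter on low counts (0.50, adjusted p = 0.274). It was the only 1 of 7 genes called, a share no larger than the background, where 14% of genes were higher and 8.62% lower. When the cells were clustered without integration of the libraries, 4 genes were called, among them mt-Nd2 (0.91, adjusted p = 0.0186), mt-Nd4 (1.47, adjusted p = 0.00064) and mt-Nd5 (1.29, adjusted p = 0.00153). mt-Nd5 had 0.46 (SE 0.25, adjusted p = 0.18), mt-Nd1 -0.23 and mt-Nd2 -0.19. The sign of mt-Cytb turned with the scaling, between -0.01 and 0.09.

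The rRNA mt-Rnr1 also rose, by 1.38 (edgeR adjusted p = 7.95e-06) on the log2 scale, in late over early B-lineage-like cells. mt-Rnr2 rose by 0.61 (edgeR adjusted p = 0.0351), a call that held in 8 of 23 alternatives. It was lost on library totals (0.51, adjusted p = 0.0842) and with Pot1a wt/wt libraries 2 and 3 as 1 library (0.61, adjusted p = 0.0530). Of 60 nuclear subunits 0 were higher and 7 lower, with a median of -0.25. The 7 mitochondrial genes and all genes both had a median of 0.09. Malat1 rose by 1.14, Junb by 1.62 and Jun by 0.87 on the log2 scale, and the median count per cell was 1919 in late and 2666 in early cells. Their part was not tested. mt-Co1 made up 18.7% of the counts of the group in late and 11.6% in early cells, and this share does not depend on scaling.

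The erythroid-like cluster was set against the Mt2 and Car1 cluster, which was picked as the earlier erythroid stage by a list of early erythroid genes but could not be named. The share of the 7 genes was lower in erythroid-like cells in 9 of 9 libraries, with means of 0.637% in erythroid-like cells and 0.999% in the Mt2 and Car1 cluster. mt-Nd1 had 846, 1720, 702 and 1555 CPM in erythroid-like cells of Pot1a fl/fl libraries and 527, 640, 836, 1367 and 938 CPM in those of Pot1a wt/wt libraries. In the Mt2 and Car1 cluster it had 2397, 2767, 2780 and 2068 CPM in Pot1a fl/fl libraries and 1794, 1576, 1601, 2589 and 1782 CPM in Pot1a wt/wt libraries. mt-Nd1, mt-Nd2 and mt-Cytb were each lower in erythroid-like cells in 9 of 9 libraries.

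mt-Co1 leaned the other way, although its call below depended on the settings. It had 994, 2376, 2425 and 1818 CPM in erythroid-like cells of Pot1a fl/fl libraries and 1367, 1360, 1314, 1704 and 1111 CPM in those of Pot1a wt/wt libraries. In the Mt2 and Car1 cluster it had 1208, 1576, 1992 and 1398 CPM in Pot1a fl/fl libraries and 1585, 990, 1028, 1300 and 713 CPM in Pot1a wt/wt libraries. It was higher in erythroid-like cells in 7 of 9 libraries, the exceptions being Pot1a fl/fl library 1 and Pot1a wt/wt library 1. It made up 24.02% of the counts of the group in erythroid-like cells and 12.7% in the Mt2 and Car1 cluster.

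By edgeR's test, 4 of 7 genes were lower and 1 was higher in erythroid-like cells than in the Mt2 and Car1 cluster, where 18.2% of genes were lower and 15.3% higher. The log2 fold change was -0.93 (SE 0.17, adjusted p = 8.15e-06) for mt-Nd1, -0.94 (SE 0.23, adjusted p = 0.000608) for mt-Nd2, -0.59 (SE 0.17, adjusted p = 0.0041) for mt-Cytb, -0.65 (SE 0.23, adjusted p = 0.02) for mt-Nd4 and 0.46 (SE 0.18, adjusted p = 0.0417) for mt-Co1. The call of mt-Co1 was lost without Pot1a wt/wt library 5 (0.39, adjusted p = 0.111), on library totals without TMM (0.26, adjusted p = 0.285), with no filter on low counts (0.32, adjusted p = 0.509) and with doublets removed (0.35, adjusted p = 0.137), and that of mt-Cytb without Pot1a fl/fl library 3 (-0.44, adjusted p = 0.0543). That of mt-Nd4 was lost without Pot1a fl/fl library 1 or Pot1a wt/wt library 1, 2 or 3 (-0.58 to -0.51, adjusted p 0.0704 to 0.113), with the other kernel in the clustering (-0.46, adjusted p = 0.128) and with Pot1a wt/wt libraries 2 and 3 as 1 library (-0.54, adjusted p = 0.0870). When the cells were clustered without integration of the libraries, 0 of the genes were called. The clusters compared were picked anew there by lists of early and late erythroid genes, so they need not match those above.

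The nuclear genes moved less. Of 60 nuclear subunits, 1 was higher and 8 were lower in erythroid-like cells than in the Mt2 and Car1 cluster, with a median log2 fold change of -0.22, beside -0.59 for the 7 mitochondrial genes and -0.09 over all genes. Atp5g1 (-1.03), the complex III subunit Uqcrc2 (-0.89) and Cox5a (-0.88) fell, and the ATP synthase subunit Atp5h rose by 0.52 on the log2 scale. Of 10 mitoribosomal proteins tested, 0 were higher and 4 lower, among them Mrpl52 (-1.44) and Mrps15 (-1.31). Malat1 rose by 1.03 and Jun fell by 1.27 on the log2 scale, and the median count per cell was 2363 in erythroid-like cells and 3316 in the Mt2 and Car1 cluster. Their part was not tested.

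Monocyte/macrophage-like cells, a comparison also chosen after the clusters had been seen, had less mt-Co1 and mt-Cytb than late B-lineage-like cells. The means were 931 CPM in monocyte/macrophage-like and 1771 CPM in late B-lineage-like cells for mt-Co1, and 1258 CPM in monocyte/macrophage-like and 2565 CPM in late B-lineage-like cells for mt-Cytb, lower in 9 of 9 libraries for both. The log2 fold change was -0.92 for both genes (SE 0.19 and edgeR adjusted p = 4.15e-05 for mt-Cytb, adjusted p = 0.00028 for mt-Co1). mt-Nd5 fell by 0.73 (SE 0.28, adjusted p = 0.0345) on the log2 scale, a call lost without Pot1a fl/fl library 4 (-0.58, adjusted p = 0.160) or Pot1a wt/wt library 2 (-0.68, adjusted p = 0.0839), and with the other kernel in the clustering (-0.62, adjusted p = 0.0815). Thus 3 of 7 genes were called lower, where 15.4% of genes were lower and 16.7% higher, while mt-Nd1 had a log2 fold change of -0.06 and mt-Nd4 of 0.15. Of 60 nuclear subunits, 0 were higher and 1 lower, with a median of 0.05 beside -0.73 for the mitochondrial genes and -0.08 over all genes. The stress genes Fos and Atf3 rose by 4.16 and 3.07 on the log2 scale, and their part was not tested.

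**Figure D5:**
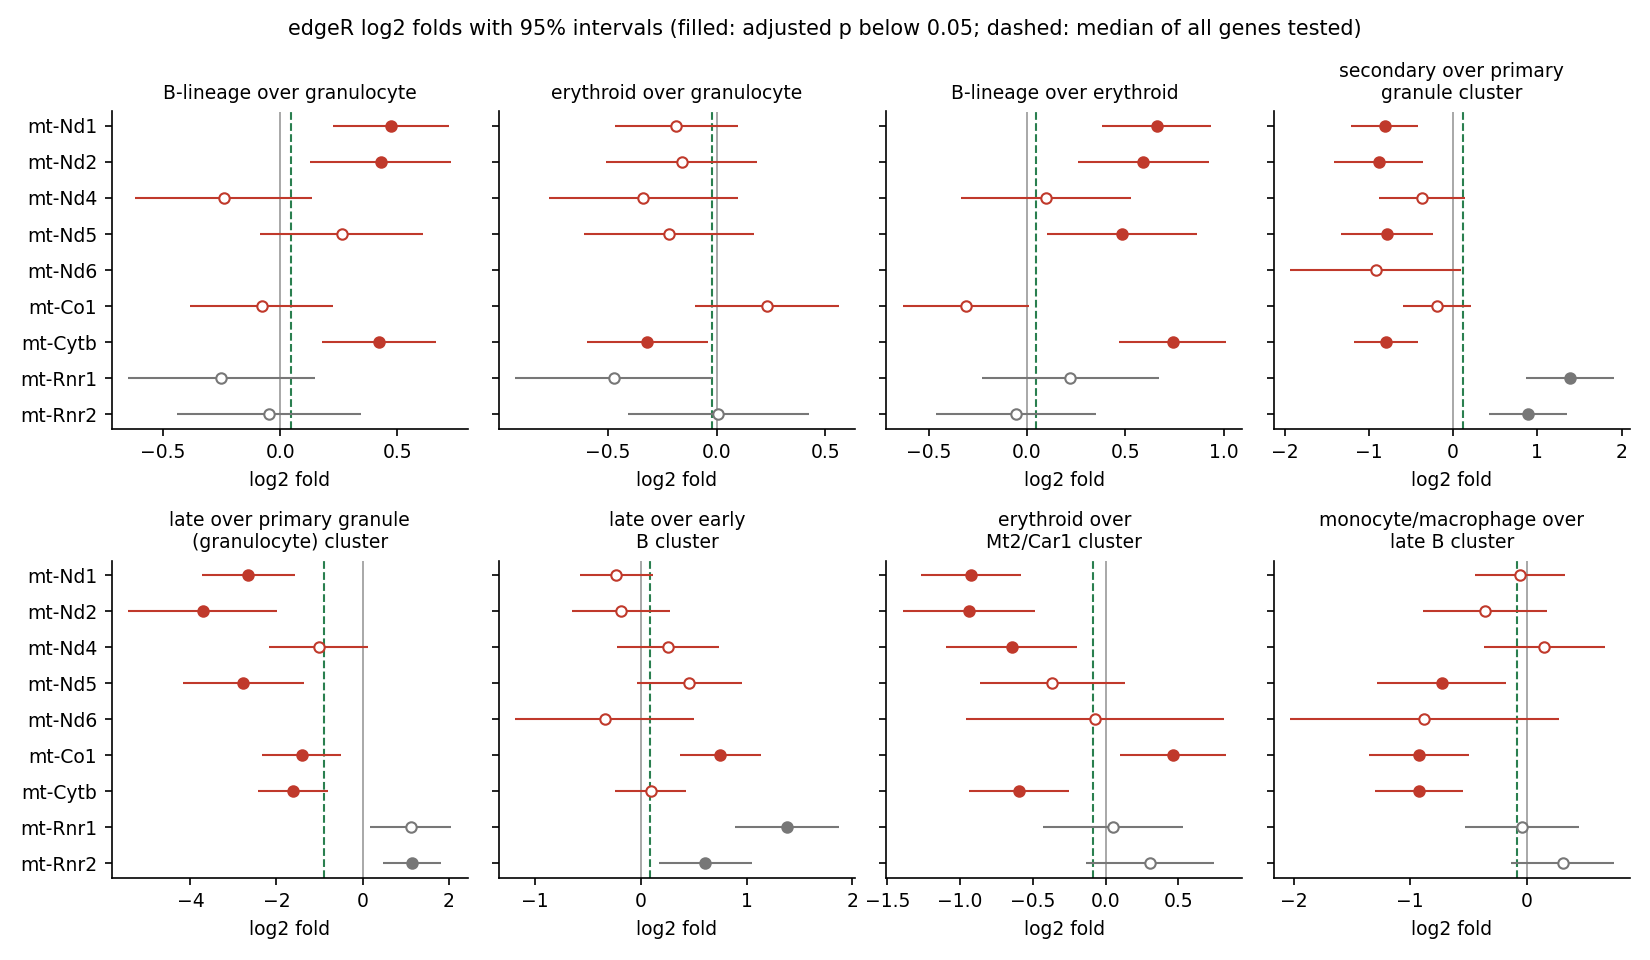
edgeR log2 fold changes with 95% intervals (x axes) for the mitochondrial genes (y axes) in the 8 comparisons of lineages and clusters, filled where the adjusted p is below 0.05, with the rRNAs in grey and a dashed line at the median of all genes tested. mt-Nd1 lies at 0.47 in B-lineage over granulocyte and at -0.81 in secondary over primary granule cells, and mt-Co1 lies apart from mt-Nd1 and mt-Cytb in the late over early B and in the erythroid panel, at 0.75 and 0.46.

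The genotype comparison was then repeated within lineages. In B-lineage-like cells 0 of 6 genes were called between Pot1a fl/fl and Pot1a wt/wt, where 0 of 1574 genes (0%) were, with log2 fold changes from -0.30 for mt-Nd2 and mt-Co1 to 0.26 for mt-Nd4 and mean shares of 0.969% in Pot1a fl/fl and 0.937% in Pot1a wt/wt. In granulocyte-like cells 0 of 6 were called, where 1 of 1106 genes (0.0904%) was, with log2 fold changes from -0.27 for mt-Nd2 to 0.00 and mean shares of 0.527% in Pot1a fl/fl and 0.572% in Pot1a wt/wt, the order of which turned without the high-mt barcode (0.505% in Pot1a wt/wt). In both lineages 0 of the 6 had an unadjusted p under 0.05. The median log2 fold change was 0.14 in B-lineage-like and -0.06 in granulocyte-like cells for the mitochondrial genes, beside 0.18 in B-lineage-like and 0.16 in granulocyte-like cells for the nuclear subunits tested.

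In erythroid-like cells 0 of 6 genes were called, where 0 of 1004 genes (0%) were. mt-Nd5 had a log2 fold change of 0.76 (SE 0.33) with an unadjusted p of 0.0345 and an edgeR adjusted p of 0.999, the only gene of the 6 under 0.05 before adjustment. The summed share was 0.490%, 0.683% and 0.885% in Pot1a fl/fl libraries 1, 3 and 4, against 0.392%, 0.576%, 0.568%, 0.747% and 0.514% in Pot1a wt/wt libraries, and these ranges overlapped. Pot1a fl/fl library 2 had 6 erythroid-like cells and was left out of the lineage fits. The median of the 6 genes was 0.31, beside -0.01 for the nuclear subunits and -0.02 over all genes. Tests of whether the genotype difference itself differed between lineages called 0 of 18, and 0 of the 18 had an unadjusted p under 0.05.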

How the data were processed

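Whole bone marrow cells of 4 Pot1a fl/fl and 5 Pot1a wt/wt libraries were profiled by Drop-seq. The authors aligned reads to mm10 with STAR and the Drop-seq software, per the submitters' processing notes, and deposited counts per gene and barcode, 100 barcodes per library. They call these read counts, and whether molecular identifiers were collapsed is not given in the sources used here. All barcodes passed a minimum of 200 counts. No mt filter was applied (25% as an alternative), and 33 doublets called by Scrublet in scanpy 1.11.5 (score above 0.11, set after the scores had been seen) were kept (removed as an alternative).

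Cells were clustered with Seurat 5.3.0 (anchor integration, 2000 variable genes, 20 components, resolution 1) without mt- genes and with 1 fixed numerical kernel, and named from at least 3 marker genes among the top 50. Counts were summed per library, per library and lineage (at least 10 cells) or per library and cluster (at least 5 cells). Sums were tested with edgeR 4.0.16 (TMM, filterByExpr, quasi-likelihood, Benjamini-Hochberg adjustment over all genes, threshold 0.05; library as a block within libraries), with DESeq2 1.42.0 as an alternative. The fits were tested on simulated data. Sequences were compared with blastn 2.17.0. The genes, lists and tests were chosen with earlier results of these data known. All 10 genes are named, with up to 4 genes of each further list by size of change among those called.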

Additional observations from a re-analysis of the deposited data

Results flagged for a closer look

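A library far from the others of its group was looked for in 65 groups of 4 to 10 values, and 10 groups held one by Dixon's test at 95%, where chance gives about 1 in 20. In whole marrow, Pot1a wt/wt library 4 was high in mt-Nd1 (2069 CPM), mt-Nd4 (858 CPM), mt-Nd6 (201 CPM) and the summed share (1.03%). The same library was high in B-lineage-like cells for mt-Nd1 (2621 CPM) and mt-Nd6 (274 CPM), where no barcode exceeded 25% mt counts, and in granulocyte-like cells for mt-Nd5 (2657 CPM, or 1760 CPM without the high-mt barcode). Pot1a fl/fl library 2 was low in mt-Nd6 (42.7 CPM) and Pot1a fl/fl library 3, the shallowest library, was high in mt-Co1 (1733 CPM) in whole marrow. Pot1a wt/wt library 1 was low in mt-Nd6 in erythroid-like cells (39.0 CPM). The cause of these values was not tested.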

How the results depend on the processing

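Between genotypes, 0 genes were called in whole marrow or in any lineage under every alternative run, and the interaction tests gave 0 with any library left out. Clustering with another numerical kernel, chosen after seeing the data, gave 3 calls in B-lineage over granulocyte, 1 in erythroid over granulocyte, 4 in B-lineage over erythroid, 5 in secondary over primary granule cells, 5 in late over primary granule cells, 1 in late over early B cells, 4 in erythroid-like over Mt2 and Car1 cells and 2 in monocyte/macrophage over late B cells. The labels number the libraries of both genotypes, and same-numbered libraries did not deviate together (correlations of -0.16 to 0.01). No pairing by number was seen, but this check cannot exclude one. With a replicate block, which left out Pot1a wt/wt library 5, 0 genes were called in whole marrow and in B-lineage-like, erythroid-like and granulocyte-like cells.

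The counts of called genes moved as follows. B-lineage over granulocyte gave 5 in place of 3 on library totals without TMM, totals of non-mt genes or totals of non-globin genes, and 2 to 4 with 1 library left out. On these 3 totals, mt-Co1 turned to 0.49, 0.50 and 0.49 in place of -0.08. The median of the nuclear-encoded subunits there ran from -0.18 to 0.47 over 6 scalings, so other genes moved up as well. The share of all genes called on the 3 totals is not given here. Erythroid over granulocyte gave 0 in place of 1 with no low count filter, with barcodes of at most 25% mt counts, with doublets removed or without integration, and 0 to 2 with 1 library left out, and mt-Cytb turned to 0.21 on totals of non-globin genes. B-lineage over erythroid gave 2 in place of 4 without integration and 3 to 4 with 1 library left out. Secondary over primary granule cells gave 7 in place of 4 on library totals, totals of non-mt genes and totals of non-globin genes, and 3 to 6 with 1 library left out. The median of the nuclear-encoded subunits there ran from -0.98 to -0.08 over 6 scalings, so other genes moved down as well. The share of all genes called on these totals is not given here. Late over primary granule cells gave 2 with RLE scaling and 3 with DESeq2 in place of 5, and 5 to 7 with 1 library left out. Late over early B cells gave 0 with no low count filter and 4 without integration in place of 1, where mt-Nd2 turned to 0.91 in place of -0.19, and 1 with any library left out. Erythroid-like over Mt2 and Car1 cells gave 0 without integration in place of 5, and 4 to 5 with 1 library left out. Monocyte/macrophage over late B cells gave 2 to 3 with 1 library left out. The causes were not tested.

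With 1 library left out, the difference in summed share was 0.0268 to 0.142 percentage points for Pot1a fl/fl minus Pot1a wt/wt, 0.362 to 0.437 for B-lineage minus granulocyte, 0.00993 to 0.102 for erythroid minus granulocyte and 0.327 to 0.388 for B-lineage minus erythroid. Late granulocyte-like cells, with 83 counts of the 7 genes in 61114, limit what the depth can show.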

Other observations

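The genes whose levels most resembled the mean of the mitochondrial genes over 26 sums of library and lineage were Rpl39 (Pearson's r = 0.81, Spearman's rho = 0.81), Rps24 (0.76 and 0.82), Npm1 (0.71 and 0.70), C1qbp (0.71 and 0.78) and Rplp2 (0.70 and 0.64), among 1415 genes with a median r of 0.16. Rpl39, Rps24 and Rplp2 encode ribosomal proteins, Npm1 a nucleolar protein and C1qbp a protein of the mitochondrial matrix. The sums share libraries, so these values are a description.

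Among the 6 mitochondrial genes with enough counts, the 15 pairwise correlations over the same sums ran from 0.26 for mt-Nd1 and mt-Co1 to 0.87 for mt-Nd2 and mt-Nd5, with a median of 0.55. mt-Co1 correlated with the other 5 at 0.26 to 0.49.

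Mesenchymal/osteolineage-like cells, a compartment that the NG2 promoter marks, had 0.948% of counts on the 7 genes and 3.32% on mt-Rnr2, the highest mt-Rnr2 share of the 10 clusters. A single cell of Pot1a fl/fl library 1 held 222 of the 548 counts of the group, the median cell was at 0.609%, and without that library the shares were 0.683% for the 7 genes and 2.57% for mt-Rnr2. The 33 cells came from 7 libraries, 14 cells from Pot1a fl/fl and 19 from Pot1a wt/wt, and 3 libraries had at least 5 of them, so the genotypes were not compared there. mt-Nd4 had 1539 CPM and mt-Nd5 622 CPM in these cells (1215 CPM for mt-Nd4 and 458 CPM for mt-Nd5 without Pot1a fl/fl library 1), while in the other 9 clusters pooled mt-Nd4 ran from 229 to 942 CPM. The median depth of 1173 counts per cell was the lowest of all clusters.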
